A study of Caenorhabditis remanei with 28 samples.

Results

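The 100 genes that drew the most reads in first-stage (L1) larvae of the nematode Caenorhabditis remanei are described here, in all 28 libraries of the study. They were chosen as the gene identifiers with the highest mean CPM over all libraries, where CPM (counts per 1e6) relates the count of a gene to all gene counts of its library. They are 100 of 25337 identifiers in the tables, of which 22573 had at least 1 count. Their high level is therefore how they were chosen and not a result. The choice used the mean over all libraries and no contrast between populations, but a high level in 1 population can carry a gene past the threshold. Chosen on the libraries of the other 3 populations, the first 100 genes kept 98 of the 100 without the ancestor, 99 without the control, 99 without the heat and 97 without the oxidative libraries. FL81_12929, FL81_04611 and FL81_14184 were among the 100 only with the oxidative libraries. FL81_12714 needed both the ancestor and the control libraries, and FL81_15155 both the ancestor and the heat libraries. Differences of these 5 genes in comparisons with those populations are tied to the choice, so they are given as values without a p.

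Poly-A RNA was sequenced from pools of about 100000 L1 larvae per replicate. The ancestor was strain PX443 (n = 6, replicates 3 to 8), and 3 populations derived from it were control selected (n = 8), heat-selected (n = 8) or oxidative-selected (n = 6, replicates 1 to 6). By the series design all libraries were kept at 20 °C, whereas the protocol names 20 °C or 30 °C for the 20 h that bleached embryos spent in buffer without food, and the labels of the heat and oxidative libraries state no temperature. No stress was applied to the larvae of these libraries as far as the labels say, and all groups shared the bleaching, the lack of food and a filter of 20 µm. Each selected regime is represented by 1 population, so selection and drift cannot be told apart. Whether replicates were grown apart is not in the labels, and a p-value here covers the spread of these libraries, which may be technical.

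Larvae of Caenorhabditis that hatch without food arrest their development at L1 and live on stored reserves until they feed. In most animal cells a small number of genes supplies a large part of the messenger RNA, and genes for ribosomal proteins, translation factors, the cytoskeleton and energy metabolism are usually among them. Which of these are among the 100 genes is not known here, because the files do not pair the identifiers with names and 0 of the 100 matched the RefSeq genes listed for C. remanei (assembly CRPX506). Genes are therefore given by identifier, without function, position or sequence, and the labelled stage could not be checked against marker genes. CPM is not divided by transcript length, so the order of the genes is an order of reads and not of molecules: a long transcript yields more fragments than a short one at the same number of molecules.

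The 28 libraries held between 1406684 and 15755610 gene counts. The lowest count of any of the 100 genes in any library was 1170, a counting error of 2.92%, and the median was 13264 counts, so counting error is small beside the differences given here. All 100 genes were among the 11952 genes that passed the filter on low counts. Of all reads, between 10.6% and 39.1% per library lay outside annotated genes and between 15.7% and 37.5% did not align.

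The 100 genes held 36.0% ± 5.08 of gene counts (SD, n = 28). In the ancestor the share was lowest at 30.5%, with a median of 39.4% and a highest value of 42.4%. In the control population it ran from 28.3% through a median of 38.2% to 44.2%, and in the heat population from 23.9% through 36.0% to 42.4%. In the oxidative population it ran from 28.3% through 32.7% to 36.1%. The ranges of all populations overlapped, and the range within the ancestor, the control and the heat population was in each case wider than any difference between population means. The means were 38.3% ± 4.26 in the ancestor, 37.4% ± 5.28 in the control, 35.8% ± 5.94 in the heat and 32.3% ± 2.60 in the oxidative population. No test is given for this share, because the genes were chosen for their level.

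**Figure D1:**
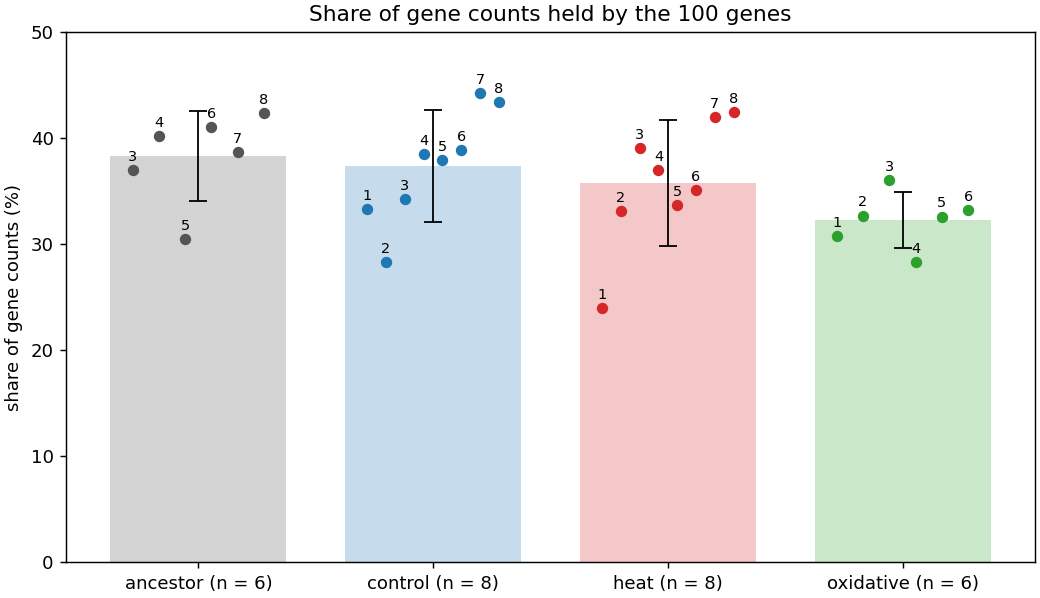
Share of gene counts held by the 100 genes (y axis, percent) in each library, by population. Points are libraries with their replicate number, bars are means and error bars are SD; heat replicate 1 is lowest at 23.9% and control replicate 7 highest at 44.2%.

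Outside the oxidative population, replicates 7 and 8 all had higher shares than replicates 1 and 2. Libraries with the same number were not always alike: replicate 5 held 30.5% in the ancestor, 37.9% in the control and 33.7% in the heat population. Replicates 7 and 8 held between 42.0% and 44.2% in the control and heat populations and 38.7% and 42.4% in the ancestor. Replicates 1 and 2 held 33.3% and 28.3% in the control and 23.9% and 33.1% in the heat population. These replicates also differed in depth, with 1406684 to 2103345 gene counts in control and heat replicates 1 and 2 and 6718320 to 15755610 in replicates 7 and 8; the part of depth in the share was not tested. Replicates 3 to 6 are the numbers that every population has. In these the mean share was 37.2% ± 4.80 in the ancestor, 37.4% ± 2.11 in the control, 36.2% ± 2.33 in the heat and 32.6% ± 3.22 in the oxidative population (n = 4 each, a choice made after seeing the data).

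The share depends on what it is taken of. Of all reads of a library, unassigned ones included, the 100 genes held 20.9% ± 4.15 in the ancestor, 19.0% ± 2.46 in the control, 15.7% ± 3.24 in the heat and 13.9% ± 1.23 in the oxidative population. Heat libraries had more reads outside genes (28.5% ± 6.73, against 18.4% ± 3.70 in the control) and oxidative libraries more unaligned reads (35.1% ± 1.91, against 24.9% ± 6.08). Outside the oxidative population the 3 libraries with the most unaligned reads were ancestor replicate 6 (35.0%), control replicate 5 (33.5%) and control replicate 4 (32.1%). They held 41.1%, 37.9% and 38.5% of their gene counts in the 100 genes, and the oxidative libraries 28.3% to 36.1%. Unaligned reads made up 32.6% to 37.5% in the oxidative libraries. The part of unaligned reads in the share of the 100 genes was not tested.

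Within the 100 genes the reads were again unevenly spread. The gene with the most reads, FL81_23640, held 1.81% of gene counts on average, the 10 genes with the most reads held 9.27% ± 1.77 and the first 50 held 24.7% ± 3.68 (n = 28). The next 100 genes added less, and all 200 together held 48.5% ± 5.86. The number of genes that made up 50% of gene counts was 225 ± 79.2 and ran from 127 in control replicate 7 to 465 in heat replicate 1. Per population this number was 198 ± 66.9 in the ancestor, 207 ± 78.4 in the control, 230 ± 104 in the heat and 268 ± 46.0 in the oxidative population.

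**Figure D2:**
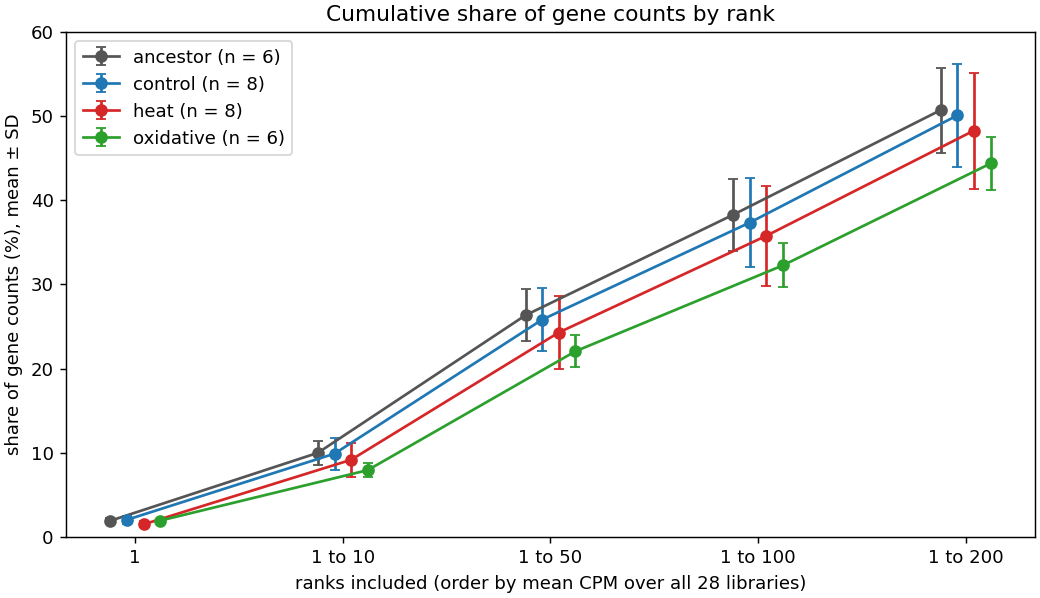
Share of gene counts (y axis, percent, mean ± SD over libraries) held by the genes up to a given rank by mean CPM over all 28 libraries (x axis). At ranks 1 to 10 the oxidative mean is 7.92% and the other means are 9.15% to 9.98%, and at ranks 1 to 100 the values are 32.3% and 35.8% to 38.3%.

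The threshold fell in a dense part of the order. The last gene inside, FL81_15155, averaged 1772 CPM, and FL81_12714 just above it 1775 CPM; the first genes outside, FL81_07808 and FL81_10800, averaged 1769 and 1757 CPM. Ranking by the median over libraries kept 98 of the 100 genes, and ranking by the mean of the 4 population means kept 99.

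The same 3 genes held the leading places in each population. FL81_23640 had the most reads in 14 libraries (3 ancestor, 4 control, 1 heat and 6 oxidative), and FL81_13682 in the other 14 (3 ancestor, 4 control and 7 heat). FL81_23640 stood at 14209 CPM in the lowest ancestor library, 20019 in the median and 23216 in the highest. Its values were 12134, 22227 and 25655 CPM in the control, 8894, 15597 and 20055 in the heat, and 16959, 19657 and 21000 in the oxidative population. The heat libraries were lower on average (14698 ± 3700 CPM, against 20137 ± 5064 in the control), but the ranges overlapped and the difference did not pass the test (edgeR log2 fold change -0.51, SE 0.27, adjusted p = 0.624).

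FL81_13682 stood at place 2 in the ancestor, control and oxidative populations and at place 1 in the heat population. It stood at 11430, 16701 and 21956 CPM in the lowest, median and highest ancestor library, and at 12866, 15379 and 26044 CPM in the control. The heat values were 11188, 16929 and 21609 CPM and the oxidative values 9529, 11324 and 13061 CPM. The oxidative libraries were low: FL81_13682 fell against the control, with a log2 fold change of -0.89 (SE 0.30, edgeR adjusted p = 0.0443), although the ranges overlapped, and passed no threshold against the ancestor (-0.82, adjusted p = 0.125) or heat population. Its highest control values were replicates 7 and 8, at 25056 and 26044 CPM, numbers that the oxidative population does not have. Control replicates 1 to 6 held 12866 to 16911 CPM. The part of replicates 7 and 8 in this fall was not tested.

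FL81_20104 stood at place 3 in every population, with 11898 ± 1294 CPM in the ancestor, 11273 ± 1797 in the control, 11521 ± 2156 in the heat and 9831 ± 957 in the oxidative population. FL81_14009 stood at place 4 in the ancestor, control and heat populations and at place 5 in the oxidative population. FL81_15425 stood at place 5 in the ancestor, control and heat populations and at place 8 in the oxidative population. FL81_14599, FL81_12527, FL81_13712, FL81_02720 and FL81_22132 completed the 10 genes with the highest overall mean, between 5434 and 6906 CPM. FL81_14599 (6906 ± 1650 CPM) and its neighbour FL81_12527 (6867 ± 1853 CPM) differed by less than their spread over libraries. All 10 were also the first 10 in the heat population, 9 were among the first 10 in the ancestor, 8 in the control and 6 in the oxidative population.

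The oxidative population had the order that differed most from the overall one. Its own 100 genes with the highest mean CPM included 87 of the 100 genes, against 98 in the ancestor, 95 in the control and 94 in the heat population. The oxidative population supplied 6 of the 28 libraries on which the genes were chosen, as did the ancestor. Between single populations, 95 of the first 100 were shared by ancestor and control, 94 by ancestor and heat, 92 by control and heat, 85 by ancestor and oxidative, and 82 each by control and oxidative and by heat and oxidative. Within single libraries the first 100 held between 81 (heat replicate 1) and 96 (control replicate 3) of the 100 genes.

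Among the genes that moved up in the oxidative population were FL81_14704, from place 23 in the ancestor, 22 in the control and 39 in the heat population to place 4, and FL81_03023 and FL81_12045, from places 24 and 33 in the ancestor, 17 and 27 in the control and 35 and 47 in the heat population to places 6 and 7. FL81_12929 moved from places 116, 134 and 81 in the same populations to place 22, and FL81_04611 from places 111, 109 and 109 to place 26. In the other direction FL81_12714 stood at places 90, 69 and 113 and at place 230 in the oxidative population, the lowest place of any of the 100 genes in any population. FL81_12714 and FL81_12929 had the widest range of places, 161 and 112. FL81_03023 and FL81_12045 lie outside the rule for naming genes and were picked with their values in view.

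Differences between populations were tested with edgeR's quasi-likelihood test on all 11952 genes, with Benjamini-Hochberg adjustment and a threshold of 0.05. All 6 pairs of populations were tested, and pairs that share a population share its libraries. Fold changes use library sizes scaled by TMM, whereas CPM values use the plain library totals. TMM factors ran from 0.70 in control replicate 7 to 1.46 in heat replicate 1, the libraries in which the 100 genes held the highest and the lowest share.

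Between larvae of the oxidative and control populations, 18 of the 100 genes differed, 3 higher and 15 lower in the oxidative population (n = 6 and 8). Over all genes tested 14% differed, 6.84% higher and 7.18% lower, so the number is near the background while the direction is uneven. Of the next 100 genes by rank 26 differed, 5 higher and 21 lower, and of the next 900 genes 20.6%. Of all 100 genes, called or not, 86 had a negative and 14 a positive fold change, with a median log2 fold change of -0.50 against -0.03 over all genes tested. The range was from -1.99 to 1.29, and 6 of the 18 differed at least 2-fold. Of the 96 genes that were among the 100 both without the oxidative and without the control libraries, 15 differed, 1 higher and 14 lower.

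The number of genes that differed depended on single libraries and on the model. It was 37 without control replicate 2, 32 without heat replicate 1, 11 without oxidative replicate 1 or 5, 9 without control replicate 8, and 8 without control replicate 7 or oxidative replicate 4. For these fits without 1 library, here and in the comparisons below, the share of all genes is not given. With replicates 1 to 6 alone the number was 7 (3 higher and 4 lower, against 11.2% of all genes). With replicates 3 to 6 alone it was 9 (2 higher and 7 lower, against 8.68%). The number was 29 with DESeq2 (3 higher and 26 lower, against 17%). It was 55 with limma-voom, which used sample weights (5 higher and 50 lower, against 29.8%). With the unaligned share of reads as a covariate it was 79 (0 higher, 79 lower; 26.2% of all genes), and the part of these reads in the result was not tested further. The median log2 fold change of the 100 genes minus that of all genes was -0.47 with TMM and -0.42 without scaling factors. It was -0.41 in replicates 3 to 6 and -0.24 in replicates 1 to 6. The median of all genes itself was 0.16 without scaling factors and -0.03 with TMM.

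**Figure D3:**
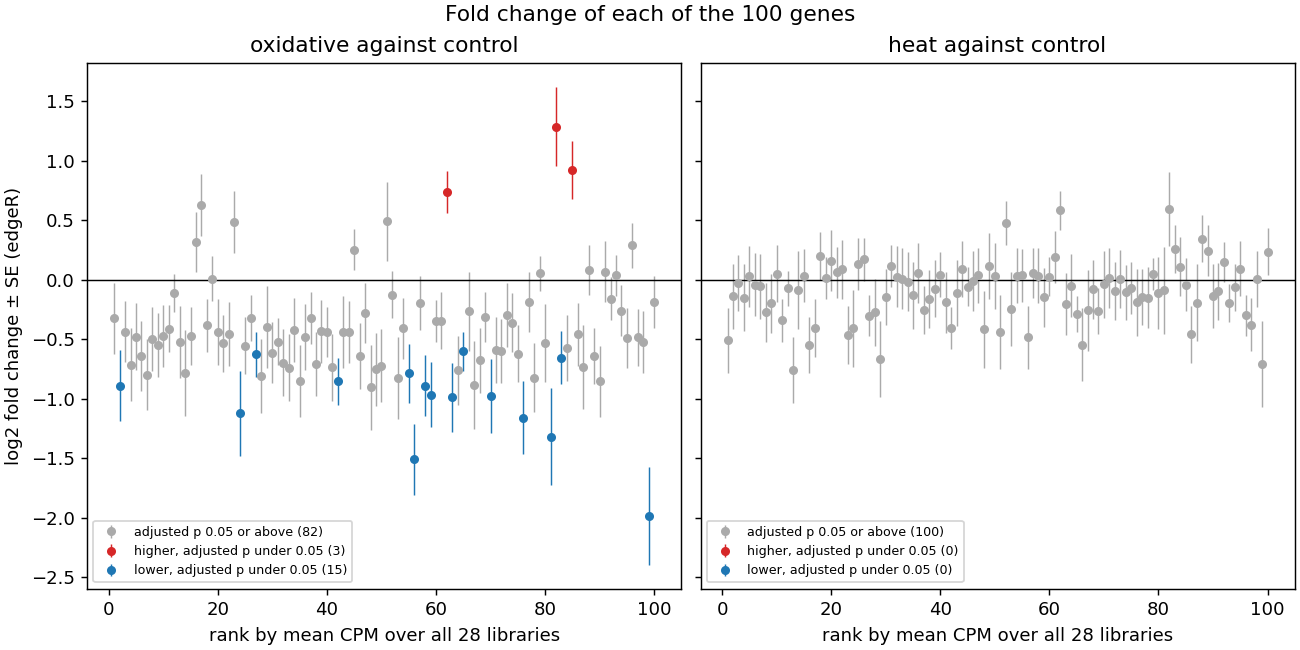
Log2 fold change (y axis, edgeR, with SE) of each of the 100 genes against its rank by mean CPM (x axis), for oxidative against control and heat against control larvae. In the first comparison 15 genes are lower and 3 higher at an adjusted p under 0.05 and most others lie under 0; in the second no gene passes the threshold.

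FL81_12714 had the largest fall. It stood at 1007, 2091 and 4887 CPM in the lowest, median and highest control library and at 516, 749 and 962 CPM in the oxidative libraries. The ancestor values were 1170, 2135 and 2743 CPM and the heat values 829, 1502 and 3258 CPM. All 6 oxidative libraries lay under every ancestor and control library, and they overlapped the low end of the heat libraries. The log2 fold change of FL81_12714 was -1.99 against the control (SE 0.41) and -1.68 against the ancestor (SE 0.42), the populations that brought it into the 100 genes. Heat larvae were higher than oxidative larvae (1.28, SE 0.40, edgeR adjusted p = 0.0407), a call that was lost in 14 of the 28 fits that left out 1 library. Those libraries were ancestor replicates 4 and 6, control replicates 4, 5 and 6, heat replicates 3, 4, 7 and 8 and oxidative replicates 1, 2, 4, 5 and 6, and the adjusted p was 0.131 at most. The call was also lost in 4 of 12 other alternatives, among them no filter on low counts (1.27, edgeR adjusted p = 0.0605), no heat replicates 3 to 6 (1.44, adjusted p = 0.0868) and replicates 1 to 6 alone (0.85, adjusted p = 0.105). Its highest control values were replicates 7 and 8, at 3646 and 4887 CPM, numbers that the oxidative population does not have. In replicates 3 to 6 alone the log2 fold change of FL81_12714 was -1.55 against the control and -1.37 against the ancestor.

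FL81_10076 had the next largest fall. It stood at 2319, 3145 and 5815 CPM in the lowest, median and highest control library and at 1199, 1487 and 1728 CPM in the oxidative libraries. The ancestor values were 1892, 2376 and 4976 CPM and the heat values 1706, 2691 and 3444 CPM. The oxidative libraries lay under all ancestor and control libraries and overlapped the lowest heat library. The log2 fold change of FL81_10076 was -1.51 against the control (SE 0.30, edgeR adjusted p = 0.000956), -1.19 against the ancestor (adjusted p = 0.0197) and 1.02 in heat against oxidative larvae (adjusted p = 0.0242). Against the ancestor it was -0.74 in replicates 3 to 6 alone, which missed the threshold (edgeR adjusted p = 0.0992), as did -0.75 in replicates 1 to 6 alone (adjusted p = 0.0620), and the call was also lost without ancestor replicate 7 or 8 or oxidative replicate 4 or 5 (between -1.14 and -1.02). In heat against oxidative larvae the call was lost without heat replicate 3, 7 or 8 or oxidative replicate 1, 4 or 5 (between 0.91 and 1.02), without the filter on low counts (1.00, edgeR adjusted p = 0.0527) and without heat replicates 3 to 6 (1.19, adjusted p = 0.0502).

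FL81_12929 had the largest rise. It stood at 521, 1385 and 2290 CPM in the lowest, median and highest control library and at 3303, 3892 and 4118 CPM in the oxidative libraries. The ancestor values were 529, 1661 and 2556 CPM, and the heat values 611, 1963 and 4167 CPM. The oxidative libraries lay above all ancestor and control libraries, whereas heat replicate 6 at 4167 CPM was higher than each of them. The log2 fold change of FL81_12929 was 1.29 against the control (SE 0.33), 1.14 against the ancestor (SE 0.36) and -0.69 in heat against oxidative larvae. Against the control it was 0.94 in replicates 3 to 6 alone and 0.86 with the unaligned share of reads as a covariate. Without the oxidative libraries FL81_12929 averaged 1714 CPM and stood at place 104, outside the 100 genes. FL81_12929 was low in replicates 7 and 8 of the non-oxidative populations, between 521 and 1206 CPM, and at 1354 CPM or above in all other libraries.

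FL81_04611 was both high and even in the oxidative population. It stood at 3483, 3548 and 3737 CPM there, and at 945, 1504 and 2697 CPM in the ancestor, 799, 1832 and 2529 CPM in the control and 865, 1663 and 2638 CPM in the heat population. All 6 oxidative libraries lay above every other library. The log2 fold change of FL81_04611 was 0.92 against the control (SE 0.24), 0.96 against the ancestor and -0.96 in heat against oxidative larvae. With the unaligned share of reads as a covariate the values were 0.55, 0.56 and -0.47, and against the control in replicates 3 to 6 alone it was 0.54. Without the oxidative libraries FL81_04611 averaged 1667 CPM and stood at place 110, so that its oxidative values brought it into the 100 genes.

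FL81_18762 rose against the control and was among the 100 genes without any 1 population. It stood at 1402, 1768 and 1898 CPM in the lowest, median and highest control library and at 3178, 3271 and 3486 CPM in the oxidative libraries. The heat values, 1713, 2820 and 3293 CPM, lay between them for the most part, and the ancestor values were 1668, 2063 and 2762 CPM. The log2 fold change of FL81_18762 was 0.74 against the control (SE 0.17, edgeR adjusted p = 0.00476). In heat against control larvae it was 0.58 (SE 0.16, adjusted p = 0.0904), which missed the threshold and was the smallest p among the 100 genes in that comparison. The other genes that were lower in oxidative than in control larvae had log2 fold changes from -1.32 (FL81_06405) to -0.60 (FL81_07891).

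Against the ancestor, 11 of the 100 genes differed in oxidative larvae, 1 higher (FL81_04611) and 10 lower (n = 6 and 6), against 5.55% of all genes tested, 2.38% higher and 3.17% lower. Of the 95 genes that were among the 100 both without the oxidative and without the ancestor libraries, 9 differed, 0 higher and 9 lower. Of the next 100 genes by rank 10 differed, 1 higher and 9 lower, so a share above that of all genes was also found in the next 100 genes. Of the 100 genes 89 had a negative fold change, with a median log2 fold change of -0.60 against -0.03 over all genes tested. After FL81_12714 and FL81_10076, the largest falls were those of FL81_19652 (-1.12) and FL81_04415 (-1.10, edgeR adjusted p = 0.00470). FL81_04415 stood at 1979, 2560 and 4496 CPM in the lowest, median and highest ancestor library and at 1091, 1496 and 1647 CPM in the oxidative libraries, which did not overlap. Without scaling factors 31 genes differed, 6 higher and 25 lower, against 6.09% of all genes. The median log2 fold change of the 100 genes was then -0.38, against 0.16 over all genes. The oxidative and ancestor populations have only replicates 3 to 6 in common. With replicates 1 to 6 alone 5 genes differed, 0 higher and 5 lower, against 4.35% of all genes. With replicates 3 to 6 alone 10 differed, 2 higher and 8 lower, against 5.23%. With the replicate numbers as a block in the model the balance turned, with more genes higher than lower, as given below with the other alternatives. The count was 27 without ancestor replicate 5, 24 without heat replicate 1, 7 without control replicate 4 or 5 or heat replicate 4, 6 without oxidative replicate 1, 2 or 6, 5 without ancestor replicate 4, 6 or 7 or oxidative replicate 5, 4 without oxidative replicate 4 and 2 without ancestor replicate 8.

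Between heat and oxidative larvae 13 of the 100 genes differed, 8 higher and 5 lower in heat larvae (n = 8 and 6), against 8.99% of all genes tested, 5.37% higher and 3.61% lower. Of the 96 genes that were among the 100 both without the heat and without the oxidative libraries, 11 differed, 8 higher and 3 lower, and of the next 100 genes by rank 12 differed, 7 higher and 5 lower. The median log2 fold change was 0.51, against 0.03 over all genes, and 83 of the 100 were positive. Without scaling factors the median was 0.33, against -0.10 over all genes. There 28 genes differed, 20 higher and 8 lower, against 8.26% of all genes. In replicates 1 to 6 alone the balance of calls turned, with 2 higher and 4 lower (8.4% of all genes), and the median was 0.29 against 0.04 over all genes. In replicates 3 to 6 alone 18 genes differed, 14 higher and 4 lower (10.4% of all genes). The median there was 0.45 against 0.003 over all genes. FL81_14704 was the gene with the largest difference in the lower direction. It stood at 2171, 2897 and 5357 CPM in the lowest, median and highest heat library and at 6835, 7162 and 7847 CPM in the oxidative libraries, which did not overlap (log2 fold change -1.03, SE 0.26, edgeR adjusted p = 0.0106). Against the control, where the values of FL81_14704 were 1428, 4784 and 6097 CPM, the oxidative libraries were again all higher, but the test did not pass (0.63, SE 0.26, edgeR adjusted p = 0.104). FL81_12045 (-0.95) and FL81_03023 (-0.86) were also lower in heat larvae, beside FL81_04611 and FL81_14184 (-0.59), which the oxidative libraries brought into the 100 genes. The count was 40 without heat replicate 1, 8 without oxidative replicate 2, 7 without heat replicate 4 or 7 or oxidative replicate 6, 6 without heat replicate 8 or oxidative replicate 1, 4 or 5 and 5 without heat replicate 3. Without heat replicates 3 to 6 it was 3, with FL81_14704 at -0.80 (edgeR adjusted p = 0.179). The call of FL81_14704 was also lost with the share of reads outside genes (-1.05, adjusted p = 0.0553) or of unaligned reads (-0.80, adjusted p = 0.103) in the model.

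**Figure D4:**
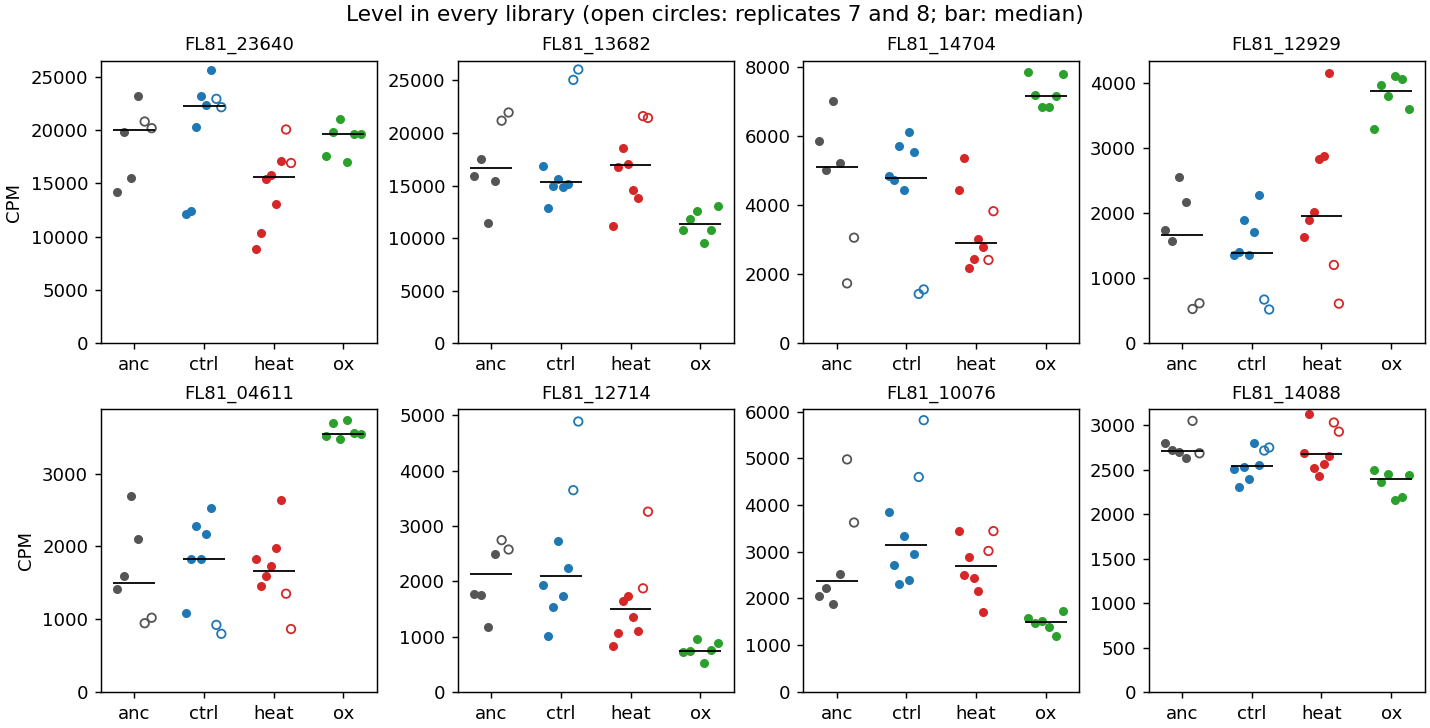
CPM (y axis) of 8 of the 100 genes in each library of the ancestor (anc), control (ctrl), heat and oxidative (ox) populations. Points are libraries, open circles are replicates 7 and 8 and bars are medians; FL81_04611 is at 3483 CPM or above in the oxidative libraries and at 2697 CPM or below in all others, and FL81_14088 is at 2158 to 3131 CPM in all.

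In the other comparisons 0 of the 100 genes passed the test, where the background allows fewer than 1 call in 100 genes, so these counts say little about the 100 genes. None differed between control and ancestor larvae (edgeR, against 0.0669% of all genes), with 2 at an unadjusted p under 0.05, 0 with DESeq2 and 1 with limma-voom. None differed between heat and ancestor larvae (edgeR, against 0.41%), with 3 at an unadjusted p under 0.05, 0 with DESeq2 and 2 with limma-voom. None differed between heat and control larvae (edgeR, against 0.761%), with 6 at an unadjusted p under 0.05, 1 with DESeq2, 2 with limma-voom and 1 without heat replicate 1. In the same order, DESeq2 called 0.183%, 0.745% and 1.45% of all genes and limma-voom 0.594%, 1.15% and 3.96%. The range of log2 fold changes in heat against control larvae was from -0.76 (FL81_11986) to 0.59 (FL81_12929), with a median SE of 0.24. FL81_22907 stood at 3216, 3520 and 4606 CPM in the lowest, median and highest heat library, above every ancestor library (1807, 2256 and 2582 CPM), and was the 1 gene of the 100 whose heat and ancestor libraries did not overlap (0.192% of all genes tested). Its log2 fold change in heat against ancestor larvae was 0.67 (SE 0.20, edgeR adjusted p = 0.199).

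Counted by overlap alone, on CPM without TMM scaling, oxidative and ancestor libraries stood apart for 20 of the 100 genes, 8 higher and 12 lower, against 6.72% of all genes (5.16% higher, 1.56% lower). Oxidative and control libraries stood apart for 11, 6 higher and 5 lower, against 7.22% (5.47% and 1.75%). Heat and oxidative libraries stood apart for 10, 2 higher and 8 lower in heat larvae, against 4.46% (1.3% and 3.16%). In the same order, 23, 25 and 16 of the next 100 genes by rank stood apart, and 175, 194 and 122 of the next 900. In each comparison the number apart was thus no higher among the 100 genes than among the next 100. The libraries of FL81_03023 and FL81_12045, for example, lay higher in the oxidative than in the ancestor population without overlap, at 6200 to 7529 CPM against 3287 to 5073 CPM and at 5688 to 7275 CPM against 2696 to 4664 CPM, while their log2 fold changes of 0.45 and 0.59 did not pass the test (edgeR adjusted p = 0.371 and 0.234).

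The 100 genes differed widely in how steady they were. The ratio of the highest to the lowest library ran from 1.45 for FL81_14088 to 9.47 for FL81_12714, with a median of 2.52, and 20 genes varied less than 2-fold and 5 more than 5-fold over the 28 libraries. As SD of log2(CPM + 1) over the libraries of a population, the median was 0.27 in the ancestor, 0.31 in the control, 0.35 in the heat and 0.16 in the oxidative population. Over all genes tested it was 0.42, 0.46, 0.49 and 0.28, and over the next 900 genes by rank it was 0.28, 0.30, 0.32 and 0.13. Over those 900 genes the median SD was lower than over the 100 genes in the control, heat and oxidative populations. In the oxidative population 72 of the 100 had an SD under 0.2, as did 69 of the next 100 genes by rank and 678 of the next 900. In the ancestor 24 of the 100 did, in the control 20 and in the heat population 11. These SDs cover different replicates. The last replicate was 8 in the ancestor, control and heat populations and 6 in the oxidative population. In replicates 3 to 6 alone the SD of the share of the 100 genes was 4.80 in the ancestor, 2.11 in the control, 2.33 in the heat and 3.22 in the oxidative population. Whether single genes were steadier in the oxidative population over the same replicates was not tested.

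FL81_14088 was the steadiest gene in the ancestor (SD 0.08) and in the control (0.10), and its level ran from 2158 to 3131 CPM over all libraries. FL81_02310 was steadiest in the heat population (SD 0.06), at 4761, 4946 and 5430 CPM in the lowest, median and highest library, and FL81_22907 in the oxidative population (SD 0.04), at 2617, 2705 and 2803 CPM. At the other end FL81_12929 varied most in the ancestor (SD 0.96) and in the heat population (0.86), FL81_14704 in the control (0.85) and FL81_06405 in the oxidative population (0.38). Neither FL81_14704 nor FL81_12929 varied evenly. Control replicates 7 and 8 held 1428 and 1559 CPM of FL81_14704, whereas control replicates 1 to 6 held 4437 to 6097 CPM.

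Most of the 100 genes went up and down together. The leading component of their log2 CPM over the 28 libraries held 60.1% of the variance, and 84 of the 100 genes had the same sign on it. Because CPM values of a library add up to a fixed total, genes that hold 36.0% of the counts cannot move independently of the rest. Grouped by the correlation of log2 CPM over libraries (average linkage, 4 sets, chosen after the values were seen and not tested), the genes fell into sets of 81, 13, 5 and 1, with a median correlation between members of 0.66 in the largest set, 0.52 in the set of 13 and 0.50 in the set of 5. All points of these correlations share the depth, the scaling and the population of their library.

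The set of 81 held FL81_23640, FL81_13682 and the other 8 genes with the most reads. Its mean log2 level, relative to each gene's mean over libraries, was between 0.31 and 0.38 in ancestor replicate 8 and in replicates 7 and 8 of the control and heat populations. These were the 5 highest libraries, and ancestor replicate 7 stood at 0.18. The level was lowest in heat replicate 1, at -0.71, and ran from -0.49 to -0.02 in the oxidative libraries. The set held 32.8% ± 4.43 of gene counts in the ancestor, 31.6% ± 5.70 in the control, 30.3% ± 6.32 in the heat and 25.7% ± 2.56 in the oxidative population.

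The set of 13 had a different pattern. It included FL81_19414, FL81_14704, FL81_18844, FL81_22907, FL81_18762, FL81_12929 and FL81_04611. Its mean log2 level was between -0.86 and -0.24 in replicates 7 and 8 of the non-oxidative populations. In control and heat replicates 1 and 2 it was between -0.24 and 0.05. The set stood between -0.15 and 0.29 in replicates 3 to 6 of the non-oxidative populations and between 0.39 and 0.45 in the oxidative libraries. It held 4.88% ± 0.0633 of gene counts in the oxidative population, where its share lay between 4.81% and 4.96% in all 6 libraries, against 3.55% ± 0.678 in the ancestor, 3.44% ± 0.741 in the control and 3.59% ± 0.554 in the heat population. Every oxidative library lay above every library of the other populations, whose highest share was 4.40% in the heat population. This is a description only, since the set was formed on these same libraries and holds the 3 genes that the oxidative libraries brought into the 100. Against the control 3 of the 13 were past the threshold, where 14% of all genes tested were. Of these, FL81_12929 and FL81_04611 are among the 100 genes only with the oxidative libraries, so their calls are tied to the choice. The other was FL81_18762. FL81_18844, for example, stood at 962 to 1804 CPM in replicates 7 and 8 of the non-oxidative populations, and at 3679 to 5051 CPM in the oxidative libraries.

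**Figure D5:**
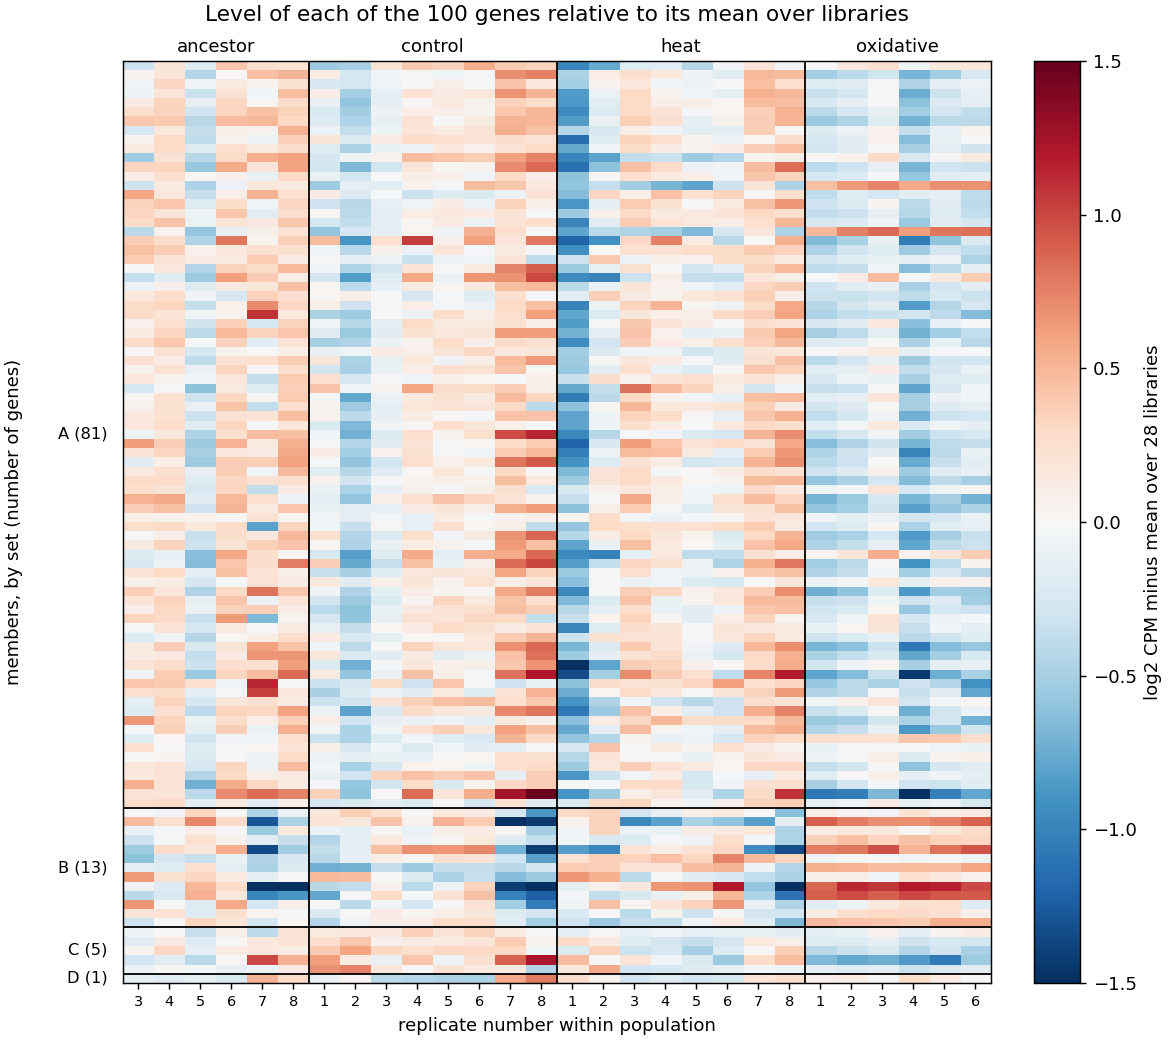
Log2 CPM of each of the 100 genes minus its mean over the 28 libraries (colour), by library (columns, with replicate number, grouped by population) and gene (rows, in sets A to D of 81, 13, 5 and 1 genes and by rank within a set). Set A is low in heat replicate 1 and high in replicates 7 and 8 of the control and heat populations, and set B is high in all oxidative libraries.

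The set of 5, FL81_02310, FL81_09720, FL81_08183, FL81_10076 and FL81_07891, was highest in the control population. It held 2.06% ± 0.135 of gene counts there, 1.76% ± 0.202 in the ancestor, 1.67% ± 0.197 in the heat and 1.45% ± 0.0641 in the oxidative population. The set was formed on these libraries, so its order of populations is a description. The last gene, FL81_20267, stood alone. It was high in replicates 7 and 8 of the non-oxidative populations, at 2506 to 3738 CPM, and low in their replicates 3 to 6, at 1571 to 1983 CPM. The oxidative libraries held 2184 to 2653 CPM. Control and heat replicates 1 and 2 held 0.2018% to 0.2625% of gene counts, which overlapped replicates 7 and 8 (0.2506% to 0.3738%).

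Seen by library, the number of the 100 genes above their own median over all 28 libraries showed how common these shifts were. It was 88 in ancestor replicate 8, 83 in control replicate 7 and in heat replicate 8, and 82 in heat replicate 7. It was 9 in control replicate 2, 10 in heat replicate 1 and 15 in ancestor replicate 5. In the oxidative population it lay between 15 and 43, with a median of 22, so that most of the 100 genes were under their overall median in each oxidative library.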

How the data were processed

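Per the labels' protocols, poly-A RNA of pooled larvae was fragmented (200 to 600 nt) before barcoded libraries were made from its cDNA. For each library the authors deposited raw counts of reads per gene. GSNAP (version 2013-03-31) is the aligner and HTSeq the counter named per the submitters' processing notes. The build, annotation and strandedness used are not given in the sources read here. Reads of overlapping genes on opposite strands can therefore not be told apart. Reads without a unique alignment stood on a summary line and not with a gene (2.07% to 3.69% of reads per library). Near-identical copies could have lost such reads. The 5 summary lines were left out of library totals and tests.

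From these counts, CPM and ranks were computed (Python 3.11.15, pandas 2.3.3), and populations were compared in R 4.3.3 with edgeR 4.0.16 (filterByExpr with a minimum count of 10, TMM, 1 coefficient per population, all 28 libraries), tested on simulated data. Standard errors come from the fold change and its F statistic. Alternatives included DESeq2 1.42.0 and limma 3.58.1. The genes and all tests were chosen with earlier results of these data known. Named are the 10 genes with the highest mean, the 2 largest rises and falls past the threshold per comparison, the genes beside the cut, the steadiest and most variable gene per population and the 2 whose place changed most; other identifiers were named after their values were seen.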

Additional observations from a re-analysis of the deposited data

Results flagged for a closer look

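A library far from the others of its population was looked for in 116 groups of libraries (27 named genes and 2 shares, in 4 populations), by the gap to its nearest neighbour as a share of the range. It was found in 8, and chance gives about 1 in 20. FL81_02720 was low in control replicate 2, at 4664 CPM against 5885 to 6631 CPM, and in heat replicate 1, at 2444 CPM against 4791 to 6881 CPM. In ancestor replicate 5, FL81_12527 stood at 4962 CPM (8125 to 9333 CPM in the other ancestor libraries), FL81_14599 at 5452 CPM (8078 to 9124) and FL81_22132 at 4684 CPM (5920 to 6496). These 3 libraries were also those in which the fewest of the 100 genes were above their median outside the oxidative population. In heat replicate 7, FL81_03023 was high at 5182 CPM (2633 to 3668 in the other heat libraries), as was FL81_12045 at 4526 CPM (2320 to 3358). FL81_12714 was high in heat replicate 8, at 3258 CPM against 829 to 1873 CPM.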

How the results depend on the processing

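Of 440 fold changes of named genes under alternatives, 0 reversed, 45 were no longer past the threshold and 395 stayed past it. They cover only the largest rises and falls past the threshold, each under 12 alternatives and in 28 fits without 1 library. The genes were picked for passing, some are tied to the choice of the 100, and the fits share most libraries. These counts therefore say little about how firm the calls are. The counts of the 100 genes past the threshold moved more, and the cause was not tested. The share of all genes tested moved too, for oxidative against control larvae from 14% to 17% with DESeq2 and 29.8% with limma-voom. It went from 5.55% to 7.78% and 23.1% for oxidative against ancestor, and from 8.99% to 11.7% and 26.2% for heat against oxidative larvae. Without scaling factors it was 13.7%, 6.09% and 8.26% in these comparisons. For oxidative against control larvae (18 genes) the count was 29 with DESeq2, 55 with limma-voom and sample weights, 11 with no filter on low counts, 30 with no scaling factors, 7 with replicates 1 to 6 alone, 9 in replicates 3 to 6 alone, an alternative chosen after seeing the data, and 79 with the unaligned share of reads as a covariate. For oxidative against ancestor larvae (11 genes) it was 21, 74, 6, 31 and 5 under the first 5 of these and 76 with that covariate, 30 with only the 2 populations compared and 7 without heat replicates 3 to 6. For heat against oxidative larvae (13 genes) it was 20, 66, 5, 28 and 6 under the same 5, 72 with that covariate (72 higher in heat larvae), 24 with a covariate for reads outside genes and 3 without heat replicates 3 to 6.

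For heat against control larvae (0 genes) it was 1 with DESeq2 or the unaligned share, 2 with limma-voom, with replicates 1 to 6 alone or with replicates 3 to 6 alone, and 3 with no scaling factors. For heat against ancestor larvae (0 genes) it was 1 with no scaling factors, the unaligned share or replicates 1 to 6 alone, and 2 with limma-voom or replicates 3 to 6 alone. For control against ancestor larvae (0 genes) it was 1 with limma-voom.

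With 1 library left out, the counts ran from 8 to 37 for oxidative against control, from 2 to 27 for oxidative against ancestor, from 5 to 40 for heat against oxidative and from 0 to 1 for heat against control larvae, and stayed at 0 in the other comparisons. The share of all genes tested is not given for the fits without 1 library, so these counts have no background beside them. Of all reads, the share of the 100 genes was 20.9%, 19.0%, 15.7% and 13.9% in the ancestor, control, heat and oxidative populations. Leaving out 1 library moved the share of gene counts to between 37.5% and 39.9%, 36.4% and 38.7%, 34.9% and 37.5%, and 31.5% and 33.1%.

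Replicate numbers were not taken to pair the libraries, because not every pair of same-numbered libraries had deviations that correlated over 0.1. This held in 7 of 8 pairs between control and heat, 4 of 6 between ancestor and control, 4 of 6 between ancestor and heat, 2 of 6 each between oxidative and control or heat, and 1 of 4 between ancestor and oxidative. For 10 of 28 libraries the closest library of another population had the same number, and how many chance would give was not computed. Same-numbered control and heat libraries correlated at -0.24 to 0.67, and other control and heat pairs at a median of -0.05. Between ancestor and oxidative libraries the values were -0.34 to 0.19 and 0.01. Whether libraries share an effect of their number was not tested, and the main fits do not include the number. With the replicate block the count was 14 for oxidative against control (5 higher, 9 lower), 7 for oxidative against ancestor (4 higher and 3 lower, where 1 was higher and 10 lower without the block), 11 for heat against oxidative, 2 for heat against control, 1 for heat against ancestor and 0 for control against ancestor larvae. FL81_12714 in heat against oxidative larvae was at 0.75 with the block (edgeR adjusted p = 0.0677).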

Other observations

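Some of the 100 genes kept a nearly fixed ratio to each other. Of 4950 pairs, FL81_15425 and FL81_22132 had the steadiest, with 1.28 to 1.54 times as many reads for FL81_15425 over all 28 libraries and an SD of the log2 ratio of 0.08, against a median of 0.37 over all pairs. FL81_03023 and FL81_12045, which moved up in the oxidative population together, had a ratio between 0.98 and 1.31 (SD 0.10). Near-identical copies could have exchanged or lost reads in the counting, which could not be checked without their sequences.

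Consecutive identifier numbers occurred in 3 pairs of the 100 genes, against 0 in the next 100 genes by rank. The SD of the log2 ratio was 0.21 for FL81_15155 and FL81_15156, 0.26 for FL81_18002 and FL81_18003 and 0.42 for FL81_19652 and FL81_19653, against the median of 0.37 over all pairs.

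Of the 13 genes outside the 100 that entered the first 100 of the oxidative population, FL81_14352 had the highest place there, 42, at 2806 CPM.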
